A study of Homo sapiens with 3 samples.

Results

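Granins are acidic proteins of the dense-core granules in which endocrine and nerve cells store peptide hormones, and prohormone processing genes encode the enzymes that cut and trim those hormones inside the granule. The 8 genes described here were measured in KYSE140, an established line of human esophageal squamous cell carcinoma: the granins CHGB, SCG2, CHGA, SCG3 and VGF, the convertase PCSK1, the chaperone SCG5 and the carboxypeptidase CPE. They were picked by gene symbol from 17219 genes with values, because SCG2 and CHGB were higher with both siRNAs against DLX5; all 8 members were found in the table. Their differences from the control are therefore given as a description, with no test.

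RNA sequencing compared 1 negative control sample with 2 DLX5 knockdown samples, here called siRNA1 and siRNA2 as in the labels. All 3 samples were KYSE140 cells grown in RPMI1640 with 10% FBS, and RNA was total RNA. The labels give no time after transfection and do not describe the control oligonucleotide. DLX5 encodes a homeobox transcription factor, best known from skeletal development. The series' design text speaks of retina and of triplicates, and the sample labels of neither. Levels are FPKM, fragments scaled to transcript length and to sequencing depth, and can be set side by side between genes since they are divided by length. Each sample has 2 replicate columns; nothing in the labels says that these were separate cultures, so each sample counts as 1 value (n = 1), and an SD over the 2 columns may be technical.

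The granin family includes chromogranins A and B and the secretogranins. They condense with calcium in the acidic lumen of the late Golgi and help to form granules, and several are themselves cut at pairs of basic residues into shorter peptides. PCSK1 makes the first cuts in many prohormones, CPE removes the basic residues left behind, and SCG5, also known as 7B2, is the chaperone of the related convertase PCSK2. In the esophagus these genes are known as products of scattered neuroendocrine cells and of neuroendocrine tumors, rather than of squamous epithelium.

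Promoters of granin genes are known for cyclic AMP response elements (CRE), the binding sites of CREB factors, and neuronal genes for RE1 elements, the binding sites of the repressor REST. RefSeq promoters (GRCh38.p14, 250 bases before to 50 after a transcript start) were at hand for 6 of the 8 genes; those of SCG2 and CHGB were not used here. The full CRE palindrome TGACGTCA stood in 3 of these 6 genes, PCSK1, VGF and CHGA, and in 1.85% of all 35116 promoters of the table. The 100 bases before the start of these 3 genes (in PCSK1 the outer of 2) are shown because they carry the same 8 letters. The transcripts of the 3 genes differed widely in level and in their difference between samples. Capitals mark the palindrome, and each line reads 5′ to 3′ on the gene's strand, which is minus for PCSK1 (chr5:96433249-96433348) and VGF (chr7:101165570-101165669) and plus for CHGA (chr14:92923050-92923149).
PCSK1: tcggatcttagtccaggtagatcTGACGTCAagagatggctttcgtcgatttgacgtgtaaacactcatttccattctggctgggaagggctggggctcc
VGF: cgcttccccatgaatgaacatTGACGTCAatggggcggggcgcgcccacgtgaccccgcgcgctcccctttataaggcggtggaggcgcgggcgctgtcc
CHGA: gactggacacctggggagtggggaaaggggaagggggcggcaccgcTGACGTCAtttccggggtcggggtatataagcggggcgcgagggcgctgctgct

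The palindrome began 77 bases before the start in PCSK1, 79 in VGF and 54 in CHGA. The shorter CRE core TGACG, searched on both strands and contained in the palindrome, was present in all 6 genes and in 24.6% of all promoters. SCG3 alone held the left part of an RE1 element, TTCAGCACC, which 0.376% of all promoters hold. It was followed after 8 bases by the right part, GGACAGC, at 9 to 32 bases after the start on the plus strand (chr15:51681511-51681534). That stretch is shown with both parts in capitals.
SCG3: TTCAGCACCcacagggcGGACAGC

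The right part alone was also found in VGF and in the inner of 2 PCSK1 starts, and in 6.03% of all promoters. The homeodomain core TAATTA, a word that DLX factors can bind, was in none of the 6 genes' windows and in 4.84% of all promoters, and the AP-1 element TGACTCA in none and in 4.95%. The word TATAAA occurred in VGF and at the inner PCSK1 start (11.5% of all), and the GC box GGGCGG in all but CPE (45.0% of all). Words were searched on both strands of the 300 bases, and a match is a run of letters, not a measured binding site.

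**Figure D1:**
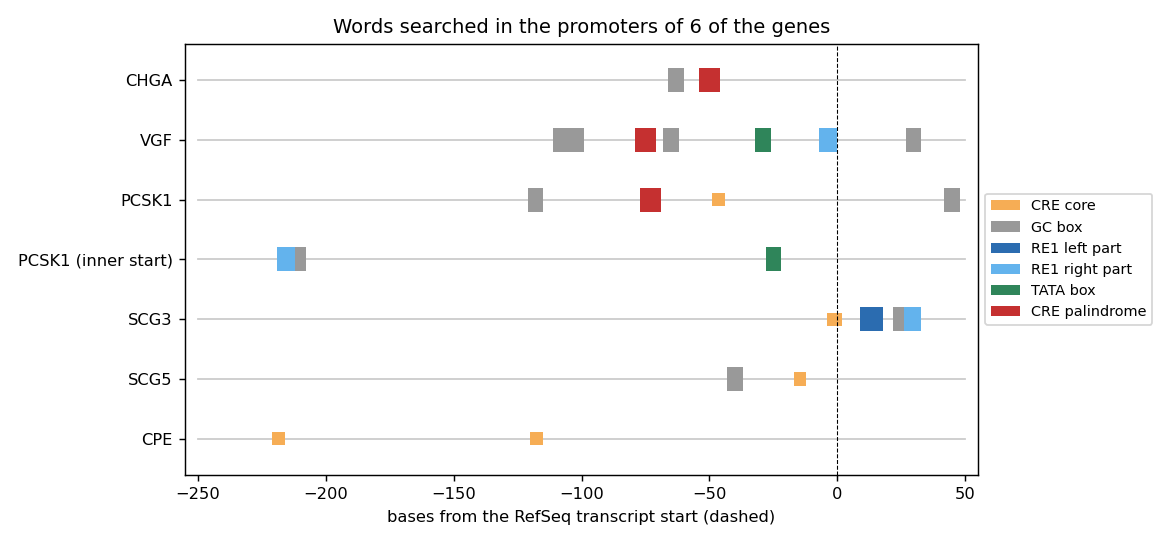
Positions of the searched words in the promoters of 6 of the genes, in bases from the RefSeq transcript start (x axis), 1 line per promoter; PCSK1 has 2 starts. The CRE palindrome lies 77 bases before the outer start of PCSK1, and 79 and 54 before the starts of VGF and CHGA. The RE1 parts of SCG3 lie after its start.

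The knockdown itself was checked first. DLX5 read 13 FPKM in the control, 3.63 with siRNA1 and 3.25 with siRNA2, that is 3.58-fold and 4.0-fold lower. The number of reads is not in the table, but the spacing of low FPKM values of short genes put it between 17900000 and 19150000 for a replicate column. Fitted were both control columns and column 2 of each siRNA sample. The fit chose the depth that put most of those values within 0.2 reads of a whole number. The share reached, between 89.3% and 92.95%, was thus what the fit maximized and does not check the estimate. The squamous identity given by the labels was visible in KRT5 (3127 FPKM in the control), KRT6A (2744 FPKM, a keratin with near-identical copies whose reads can be split) and TP63 (92.1 FPKM). Of 10 squamous markers 5 fell with the siRNAs past the gene test described below, and their summed level was 7598 FPKM in the control, 3406 with siRNA1 and 3465 with siRNA2. Their part in the granin results was not tested. Of 5 glandular markers tested 3 fell, and the sums of the 7 with values were 1471, 951 and 1119 FPKM. No call was made among 2 of 8 fibroblast and 3 of 6 leukocyte markers that could be tested, though COL1A1 read 15.87 FPKM in the control against 8.755 and 7.505 (adjusted p = 0.0624, limma) and CD68 6.265 against 2.93 and 3.37 (adjusted p = 0.0787). The 6 endothelial markers were all under the minimum level and summed to at most 0.67 FPKM. The marker genes named here and in the account of neuroendocrine cells were picked after their values were seen. The highest retinal marker, NRL, read at most 1.145 FPKM.

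Of the 8 genes, only CHGB, SCG2 and VGF were above 1 FPKM in the control. CHGB was the most abundant at 30.9 FPKM, above 84.9% of genes with values, followed by SCG2 at 12.65 FPKM (67.3%) and VGF at 3.685 FPKM (44.1%). CPE (0.725 FPKM) and PCSK1 (0.65 FPKM) came next; their replicate columns overlapped, so their order is not resolved. SCG5 (0.155 FPKM), SCG3 (0.145 FPKM) and CHGA (0.105 FPKM) were lowest, again with overlapping columns. CHGB and SCG2 together made up 88.9% of the summed FPKM of the 8 genes in the control, 94.2% with siRNA1 and 93.2% with siRNA2. The sum itself was 49.0 FPKM in the control, 99.7 with siRNA1 and 100.2 with siRNA2, while that of the other 6 genes was 5.465, 5.795 and 6.77.

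**Figure D2:**
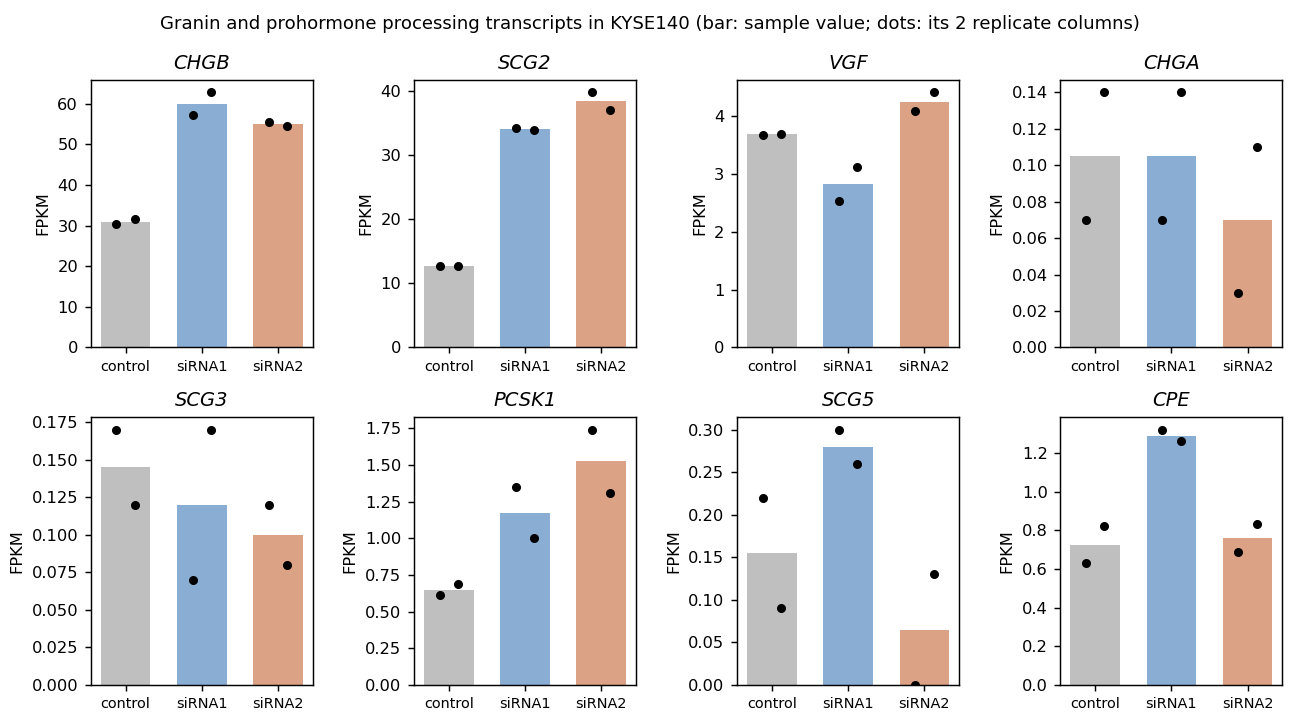
FPKM of each gene (y axis, from 0, with its own scale) in the control and with each siRNA; the bar is the sample's value and the dots are its 2 replicate columns. For CHGB, SCG2 and PCSK1 all 4 columns with siRNA lie above both control columns, and VGF is lower with siRNA1 and higher with siRNA2.

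SCG2, the precursor of the neuropeptide secretoneurin, showed the widest difference of the granins above 1 FPKM. Its replicate columns read 12.62 and 12.68 FPKM in the control, 34.12 and 33.9 with siRNA1, and 39.72 and 37.03 with siRNA2. The 3 samples did not overlap, and siRNA2 was above siRNA1, an order that rests on 1 sample each and was not tested. The sample values of 12.65 ± 0.0424, 34.01 ± 0.156 and 38.375 ± 1.90 FPKM (SD over columns) correspond to a level 2.69-fold the control's with siRNA1 and 3.03-fold with siRNA2. These values stand on an estimated 601 reads per column in the control and 1617 and 1824 with the siRNAs. SCG2 lies on chromosome 2 (224461658 to 224467217, minus strand, hg19) and has 1 transcript in the table.

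CHGB, chromogranin B, an abundant matrix protein of secretory granules, was higher by a smaller factor. Its columns read 30.3 and 31.54 FPKM in the control, 57.15 and 62.73 with siRNA1, and 55.53 and 54.55 with siRNA2. Both siRNA samples lay above the control, and here siRNA1 was above siRNA2, the reverse of SCG2. The nearest columns of the 2 siRNAs, 57.15 and 55.53 FPKM, lay closer together than the 2 columns of siRNA1. This order rests on 1 sample each and was not tested. The ratio to the control was 1.94 with siRNA1 and 1.78 with siRNA2. As SCG2 differed more than CHGB, the ratio of CHGB to SCG2 was 2.44 in the control, 1.76 with siRNA1 and 1.43 with siRNA2. CHGB lies on chromosome 20 (5891974 to 5906007, plus strand, hg19), so the 2 genes are not neighbors.

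Genes of like level show how far such ratios lie from the bulk of the table, as a description. Among 3022 genes within 1.5-fold of the control level of SCG2, 5% had a ratio above 1.59 with siRNA1 and 5% above 1.57 with siRNA2. Among 2152 genes within 1.5-fold of CHGB those bounds were 1.52 and 1.48. Both granins lay above them, which is how they came to be chosen. PCSK1, taken likewise against 979 genes, lay below that bound with siRNA1 (ratio 1.81, bound 1.93) and above it with siRNA2 (2.35, bound 1.76). CPE and VGF lay within the range of genes of like level with both siRNAs.

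VGF, a neurotrophin-inducible granin whose peptides act in energy balance, differed in opposite ways with the 2 siRNAs. Its columns read 3.67 and 3.7 FPKM in the control, 2.53 and 3.12 with siRNA1, and 4.09 and 4.41 with siRNA2. Thus both siRNA1 columns lay below the control and both siRNA2 columns above it. The ratio to the control was 0.767 with siRNA1 and 1.15 with siRNA2, and siRNA2 stood at 1.504 times siRNA1. Of all genes above 0 in the control, 6.61% had their columns split in this way. On a read estimate of 174 per column in the control, 133 with siRNA1 and 201 with siRNA2, counting error is not negligible, and the difference between the siRNAs rests on 1 sample each and was not tested. VGF lies on chromosome 7 (100805790 to 100808852, minus strand, hg19), as DLX5 does.

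CHGA, chromogranin A, the granin most used as a tissue and blood marker of neuroendocrine tumors, was close to absent. It read 0.07 and 0.14 FPKM in the control, the same with siRNA1, and 0.03 and 0.11 with siRNA2. SCG3, which anchors granin aggregates to the cholesterol-rich granule membrane, read 0.17 and 0.12 FPKM in the control, 0.07 and 0.17 with siRNA1, and 0.12 and 0.08 with siRNA2. The columns of all 3 samples overlapped for both genes. With an estimated 2.63 to 3.94 reads per column for CHGA and 6.15 to 8.92 for SCG3, differences as small as those between these samples were not detectable at this depth. In hg19 CHGA lies on chromosome 14 (93389445 to 93401638) and SCG3 on chromosome 15 (51973550 to 52013223), both on the plus strand.

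Of the processing genes, PCSK1 had the difference most like that of the 2 abundant granins, at a far lower level. Its columns read 0.61 and 0.69 FPKM in the control, 1.35 and 1.0 with siRNA1, and 1.74 and 1.31 with siRNA2. The control lay below both siRNA samples, whose columns overlapped each other. The ratio to the control was 1.81 with siRNA1 and 2.35 with siRNA2, on an estimated 62.8, 114 and 147 reads per column. With replicate column 2 alone the mean difference of PCSK1 on the log2(FPKM + 1) scale was 0.35, against 0.51 from both columns, and with a pseudocount of 0.1 in place of 1 it was 0.94. PCSK1 lies on chromosome 5 (95726040 to 95768985, minus strand, hg19).

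CPE read 0.63 and 0.82 FPKM in the control, 1.32 and 1.26 with siRNA1, and 0.69 and 0.83 with siRNA2. It was thus higher with siRNA1 (ratio 1.78), while siRNA2 overlapped the control (ratio 1.05). SCG5 read 0.22 and 0.09 FPKM in the control, 0.3 and 0.26 with siRNA1, and 0 and 0.13 with siRNA2, on an estimated 1.53 to 6.58 reads per column. Its siRNA1 columns lay above the others, but at so few reads no order is read from them. PCSK2, the convertase that SCG5 serves, read at most 0.005 FPKM in any sample; it is named here after its values were seen. CPE lies on chromosome 4 (166300094 to 166419699) and SCG5 on chromosome 15 (32933814 to 32989299), both on the plus strand in hg19.

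By size alone, 3 of the 8 genes (SCG2, CHGB and PCSK1) had at least 1.5 times the control's FPKM with both siRNAs. Of 16486 genes above 0 in the control, 5.77% did so; since the genes were chosen on this contrast, nothing is read from that difference. With a minimum of 2-fold only SCG2 remained, and with 1 added to each FPKM SCG2 and CHGB. With siRNA1 alone 5 genes passed 1.5-fold, CPE and SCG5 being the additional ones (11.3% of all genes), and with siRNA2 alone the same 3 as with both (8.69%). All 4 siRNA columns lay above both control columns for SCG2, CHGB and PCSK1, as they did for 24.1% of all genes above 0 in the control. In the authors' deposited table the log2 fold change over the control is 1.43 and 1.60 for SCG2, 0.955 and 0.832 for CHGB and 0.877 and 1.21 for PCSK1, with siRNA1 and siRNA2.

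**Figure D3:**
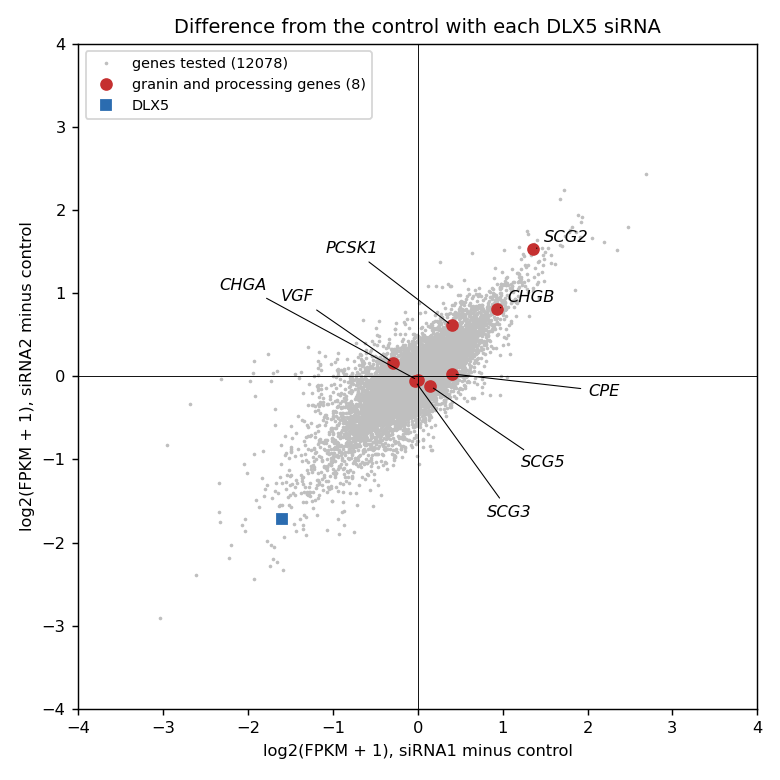
Difference from the control on the log2(FPKM + 1) scale with siRNA1 (x axis) and siRNA2 (y axis) for 12078 genes tested (grey), the 8 granin and processing genes (red) and DLX5 (blue square). SCG2 and CHGB stand at the upper right, at 1.36 and 1.53 for SCG2 and 0.93 and 0.81 for CHGB; both axes share the control, which by itself draws points along the diagonal.

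Other genes whose mean reached 5 FPKM were ranked by the distance of their pair of log2(FPKM + 1) differences from that of each granin, over 3 samples and 8853 genes. Nearest to SCG2 were VOPP1 (34.95 FPKM in the control, 91.97 and 107.3 with the siRNAs), RABL6 (30.2, then 77.87 and 84.62 FPKM) and DHX37 (5.815, then 17.75 and 18.9 FPKM). Nearest to CHGB were ETFRF1, BMS1 and SKA2, at distances of 0.0152 to 0.0289 on the log2 scale. With 3 samples many genes share a pattern, and all differences share 1 control.

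For genes outside the 8, the control was compared with both siRNA samples by limma on log2(FPKM + 1), over the 12078 genes that reached 1 FPKM in any sample, at a Benjamini-Hochberg adjusted p under 0.05. The spread comes from the 2 siRNA samples, with 1 residual degree of freedom per gene. It is combined by limma with the spread pooled over all genes tested (5.16 prior degrees of freedom), on which each p-value largely rests. The single control has no measured spread of its own. Higher with the siRNAs were 171 genes (1.42%) and lower 202 (1.67%). Of the 8 genes, 5 met the minimum level, PCSK1 and CPE only through siRNA samples. The related lists held 191 other genes, of which 111 were tested, 3 rose (2.70%) and 2 fell (1.80%). Of the 111, 24 (21.6%) had an unadjusted p under 0.05, as did 2359 of all 12078 genes tested (19.5%), the share against which such counts are to be read. Their median log2 fold change was -0.0014, and that of all genes tested 0.0137.

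No other granin-related gene passed among the 6 tested. PCSK1N, which encodes proSAAS, a granin-like inhibitor of PCSK1, read 7.425 FPKM in the control, 7.5 with siRNA1 and 7.335 with siRNA2 (adjusted p = 0.998, limma). GNAS, whose locus also encodes the granin-like NESP55, read 319 FPKM against 173 and 331 (adjusted p = 0.574), and the table does not separate its products. PPIB and NUCB1, general proteins of the secretory pathway, read 306 FPKM against 342 and 325, and 40.3 against 39.4 and 34.8.

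Among 11 tested convertases, inhibitors and proteases none passed, with 3 at an unadjusted p under 0.05 (27.3%, against 19.5% of all genes tested). FURIN, the ubiquitous convertase of the constitutive pathway, read 41.9 FPKM in the control, 40.6 with siRNA1 and 46.2 with siRNA2 (adjusted p = 0.908, limma). The lysosomal protease CTSB read 111.6 FPKM against 70.6 and 70.9 (adjusted p = 0.066), and the aminopeptidase RNPEP 36.3 against 38.5 and 38.4. FURIN thus stood above PCSK1, at 0.65, 1.175 and 1.525 FPKM, in each of the 3 samples.

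Of 5 tested trimming and amidation enzymes 1 fell. CPA4, a carboxypeptidase of the A family, read 4.955 FPKM in the control, 0.715 with siRNA1 and 1.325 with siRNA2 (log2 fold change -1.58 ± 0.23 SE, adjusted p = 0.0298, limma). PAM, the only known peptide-amidating enzyme, read 21.1 FPKM against 22.8 and 21.3 (adjusted p = 0.879). CPD, a Golgi carboxypeptidase with the same specificity as CPE, read 15.1 FPKM against 14.7 and 15.8 (adjusted p = 0.974), and the sorting receptor SORL1 15.4 against 14.7 and 13.5.

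The cargo, peptide prohormones and cleaved growth factors, had a median log2 fold change of -0.281 over 16 tested genes. Of these 1 fell and none rose past the test. An unadjusted p under 0.05 (limma) was seen for 7 (43.8%), against 19.5% of all genes tested, and all 7 were lower with both siRNAs. GAL, the precursor of the neuropeptide galanin, fell from 164.7 FPKM in the control to 77.55 with siRNA1 and 94.11 with siRNA2 (log2 fold change -0.94 ± 0.16 SE, adjusted p = 0.0426, limma). Its direction is thus opposite to that of SCG2 and CHGB. PTHLH, parathyroid hormone-related protein, a product typical of squamous carcinomas, went from 169 FPKM to 84.2 with siRNA1 and 104 with siRNA2 without passing the test (adjusted p = 0.060). NTS, neurotensin, read 43.2 FPKM against 50.4 and 49.9 (adjusted p = 0.486). Of the list's genes 31 had values, and 15 of these stayed under 1 FPKM in every sample.

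**Figure D4:**
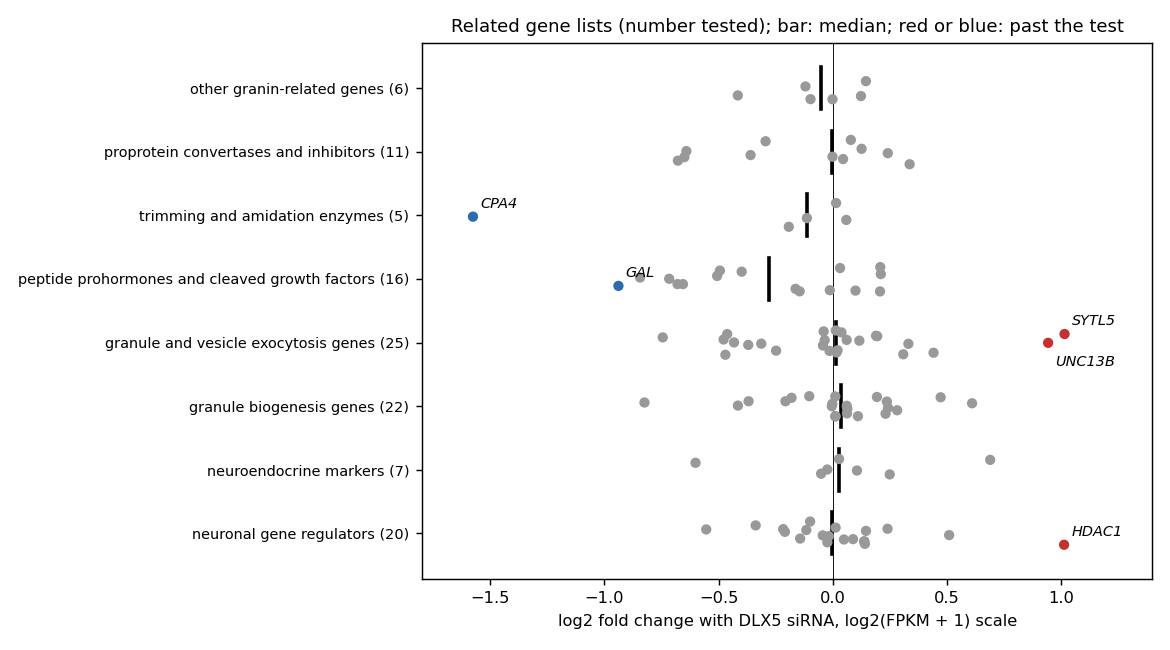
Log2 fold change with DLX5 siRNA on the log2(FPKM + 1) scale (x axis) for each tested gene of the related lists (rows, number tested in brackets); the bar is the list's median, red and blue mark genes past the test. The 5 genes past it are CPA4 and GAL on the lower side and SYTL5, UNC13B and HDAC1 on the higher side.

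Of 25 tested genes of granule and vesicle exocytosis 2 rose and none fell, with a median log2 fold change of 0.0131. An unadjusted p under 0.05 was seen for 5 (20%, against 19.5% of all genes tested). Besides the 2 that rose these were SYT7, RAB3B and DOC2B, all lower with both siRNAs and named after their values were seen. SYT7 read 3.52 FPKM in the control against 1.5 with siRNA1 and 1.91 with siRNA2 (adjusted p = 0.0997, limma). SYTL5, a synaptotagmin-like protein that binds RAB27, rose from 6.035 FPKM in the control to 13.6 with siRNA1 and 12.84 with siRNA2 (log2 fold change 1.01 ± 0.17 SE, adjusted p = 0.0388, limma). UNC13B, a priming factor of vesicle fusion, rose from 4.11 to 8.5 and 9.16 FPKM (adjusted p = 0.0495). VAMP8, VAMP3 and STXBP2, fusion proteins of general secretion, were the most abundant of the list at 64.8, 57.3 and 34.3 FPKM in the control, and did not pass. Of the list's genes 43 had values, and 18 of these stayed under 1 FPKM in every sample, among them the neuroendocrine genes PTPRN, CADPS and SNAP25 with at most 0.09 FPKM, which are named after their values were seen.

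None of 22 tested granule biogenesis genes passed, with 3 at an unadjusted p under 0.05 (13.6%, against 19.5% of all genes tested). The adaptor subunit AP1S1 read 84.1 FPKM against 103 and 90.1, the calcium-binding Golgi protein SDF4 72.6 against 86.2 and 90.9, and the Golgi calcium pump ATP2C1 68.8 against 66.6 and 55.2.

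Of the neuroendocrine marker list 7 of 20 genes in the table were tested and none passed; 2 had an unadjusted p under 0.05 (28.6%, against 19.5% of all genes tested). UCHL1 read 302 FPKM in the control, 307 with siRNA1 and 288 with siRNA2, ENO2 30.8 against 31.0 and 28.4, and the transcription factor PROX1 1.68 against 2.07 and 2.305. The 2 with an unadjusted p under 0.05 (limma) were INSM1, higher with both siRNAs, and DLL3, lower with both. INSM1 and DLL3 are named after their values were seen. INSM1, a transcription factor of neuroendocrine cells, read 0.88 FPKM against 1.965 and 2.1 (adjusted p = 0.0971, limma). DLL3 read 2.665 FPKM in the control against 1.07 with siRNA1 and 1.82 with siRNA2 (adjusted p = 0.227, limma). The defining markers of neuroendocrine cells were near 0: CHGA stayed at or below 0.105 FPKM, NCAM1 at or below 0.06 and SYP between 0.565 and 0.605. The 7 neuroendocrine cell markers in the table summed to 335 FPKM in the control and to 341 and 320 with the siRNAs, nearly all of it UCHL1 and ENO2. In a bulk sample more cells with a transcript and more transcript per cell cannot be told apart.

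Of 20 tested regulators of neuronal genes 1 rose. HDAC1, a histone deacetylase found in many repressor complexes, rose from 71.2 FPKM in the control to 156 with siRNA1 and 134 with siRNA2 (log2 fold change 1.01 ± 0.15 SE, adjusted p = 0.0324, limma). REST itself, the repressor named for its silencing of neuronal genes, read 8.225 FPKM against 9.095 and 8.02 (adjusted p = 0.912). Its partners KDM1A and HDAC2 read 71.5 FPKM against 70.5 and 73.7, and 35.95 against 40.9 and 35.8, with no call.

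The 5 calls in these lists were near the threshold. With a pseudocount of 0.1 SYTL5 and HDAC1 kept an adjusted p under 0.05 (limma; 0.0449 and 0.0406), and CPA4, GAL and UNC13B lay between 0.0507 and 0.0517. Without a trend GAL lost the call (0.0659). All 5 lost it without the minimum level (adjusted p = 0.320 for each) and with quantile normalization (0.0607 to 0.0738), while the 5 directions held under each alternative.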

How the data were processed

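The authors deposited 1 table of genes with FPKM per replicate column and per sample, and log2 fold changes between samples, per the file headers. Per the submitters' processing notes, the tools were RSEM 1.2.12, Bowtie2 2.2.5 and HISAT2 2.0.4 with DESeq listed as 3.4, and the build hg19; no roles are stated. FPKM is divided by length and depth, so low values are coarse; no source used here gives strand handling. From 19280 lines, 14 with no gene ID and 2047 genes without values were left out. Per-sample columns not used number 2, since they share a heading; column 1 of each siRNA sample was computed as 2 times the sample's mean minus column 2.

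Genes were tested on log2(FPKM + 1) with a mean-variance trend (R 4.3.3, limma 3.58.1); p-values reflect only the spread of the siRNA samples, possibly technical. Tested on simulated data (20 runs, 200 changed of 12078 genes), 44.2% of log2 changes of 1 and 98.4% of 2 were found, with 5.96% false calls. Changes were put only into genes with a mean log2(FPKM + 1) above 2, so the shares found do not cover lower genes. Simulated control and siRNA samples were drawn with the same fitted spread, which a single control cannot check. Read estimates use the longest transcript less 60 bases and 18925000 reads, and cover counting only. The members and lists were chosen with earlier results of these data known. Genes named are the 8, DLX5, REST and PCSK1N, up to 4 called and the 3 most abundant genes of each list, and the nearest patterns; others, cell type markers among them, were named after their values were seen. Alternatives were another pseudocount, no filter, no trend, scalings, single siRNAs and replicate columns. Protein sequences were not used here.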

Additional observations from a re-analysis of the deposited data

Results flagged for a closer look

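VGF was flagged because it differed from the control in opposite ways with the 2 siRNAs. Its FPKM ratio to the control was 0.767 with siRNA1, both replicate columns being below the control's, and 1.15 with siRNA2, both being above. Both ratios lay within the range of genes of like level, and at its read numbers counting error is not negligible. This difference between the siRNAs was not tested. Such a split of the columns was seen in 6.61% of 16486 genes above 0 in the control.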

How the results depend on the processing

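SCG2 and CHGB kept their direction under all 6 alternatives run. Their mean log2(FPKM + 1) differences of 1.44 and 0.87 moved by no more than the SD between the siRNA samples under the alternatives that kept both siRNAs. Leaving 1 siRNA out cannot move a mean of 2 values by more than their SD, so that comparison decides nothing. With 1 siRNA left out the range was 1.36 to 1.53 for SCG2 and 0.812 to 0.933 for CHGB. The count of 3 genes at least 1.5-fold higher with both siRNAs was 1 at a minimum of 2-fold, and 3 to 5 with 1 siRNA left out. Over all genes, 171 higher and 202 lower became 0 and 0 without the filter (2444 genes at an unadjusted p under 0.05, limma), 12 and 10 with quantile normalization, 3932 and 3592 with replicate columns as separate values, whose spread is within samples, and 365 and 468 at an adjusted p under 0.10. In the related lists 3 higher and 2 lower became 0 and 0 without the filter and with quantile normalization, 31 and 37 with replicate columns; the lower count was 0 with a pseudocount of 0.1 and 1 without a trend. The cause was not tested. The limma test cannot be run with 1 siRNA left out, as no residual degree of freedom remains. No paired analysis was possible because the control has 1 sample. The median log2 ratio of genes at 5 FPKM or more was 0.0498 with siRNA1 and 0.0367 with siRNA2. Low read numbers limit CHGA, SCG3 and SCG5.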

Other observations

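The Gene Ontology annotation in the deposited table, used after the data were seen, gives the term secretory granule to 7 of the 8 genes, all but VGF, and to 308 genes with values in all. Of the 179 others tested, 1 rose and 5 fell, with a median log2 fold change of -0.0094. Over all 12078 genes tested 1.42% rose and 1.67% fell, the shares against which the counts for each term are to be read. ECE1, a protease that activates endothelin, rose from 41.6 FPKM to 86.7 and 90.5 (adjusted p = 0.0246, limma), while FSTL3, KLK5, LAMP3, GAL and CAV1 fell; these genes are named after their values were seen. KLK5, a kallikrein of the skin, went from 2.89 FPKM to 0.585 and 0.45, and LAMP3 from 65.25 to 29.88 and 28.18. For the term peptide hormone processing, which covers SCG5, CPE and PCSK1, ECE1 was the 1 gene that rose of 14 others tested, and none fell. For hormone activity, which covers CHGB and VGF, GAL was the 1 gene that fell of 32 others tested, and none rose.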
